A study of Mus musculus with 2 samples.

Results

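The miR-181 family comprises 6 microRNA (miRNA) genes of the mouse, Mir181a-1, Mir181a-2, Mir181b-1, Mir181b-2, Mir181c and Mir181d, arranged as 3 clusters of 2. The members were set by gene symbol, with earlier results of these data known. All 6 identifiers carry these symbols in the GENCODE M21 annotation, out of 2202 miRNA genes in the deposited tables. Small RNA below 30 nt was sequenced from left cerebral cortex of B6CASTF1/J mice, an F1 hybrid with a C57BL/6J and a CAST/EiJ parent, at 18 to 20 months of age. The labels give 1 group of 2 biological replicates and no treatment or genotype contrast. Both tissue records point to 1 donor record, so the spread between the libraries may be technical, and p-values measure only the difference between these 2 libraries. The sample fields call the mice male and the free text calls them female.

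A miRNA gene is transcribed into a hairpin that is cut into short duplexes, and 1 arm of the duplex, the 5p or the 3p strand, is loaded into an Argonaute protein. The loaded strand finds target transcripts mainly by pairing of its seed, bases 2 to 8 counted from the 5′ end. The miR-181 family is best known from mouse thymocytes, where the Mir181a-1/Mir181b-1 cluster sets the sensitivity of T cell receptor signalling. Family members are also studied in neurons and astrocytes.

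The mature sequences are shown first because the family is defined by them and because reads are assigned to a locus only where the sequence is unlike that of its copies. RefSeq (GRCm38.p6) lists 10 named mature miRNAs for the 6 loci, and all 6 loci were matched. Bases 2 to 8 are in capitals, and each sequence runs 5′ to 3′.
miR-181a-5p: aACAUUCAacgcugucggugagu
miR-181b-5p: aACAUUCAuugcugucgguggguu
miR-181c-5p: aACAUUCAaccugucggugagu
miR-181d-5p: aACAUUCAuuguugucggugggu
miR-181a-1-3p: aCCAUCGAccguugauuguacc
miR-181a-2-3p: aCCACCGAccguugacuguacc
miR-181b-1-3p: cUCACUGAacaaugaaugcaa
miR-181b-2-3p: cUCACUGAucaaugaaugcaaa
miR-181c-3p: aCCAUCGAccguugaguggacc
miR-181d-3p: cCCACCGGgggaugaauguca

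All 6 loci carry the same seed on their 5p strand, ACAUUCA, and no mature miRNA outside the family had this seed in the RefSeq table. The 5p strands differ behind the seed. With positions counted from the 5′ end, miR-181d-5p differs from miR-181b-5p by the substitution C12U and by 1 base of length. In an alignment, miR-181c-5p shares 22 bases with miR-181a-5p and lacks 1. The substitutions between miR-181a-5p and miR-181b-5p are A9U, C10U and A21G, beside 1 base of length.

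The 3p strands are more diverse. miR-181a-1-3p and miR-181c-3p, which come from different clusters, share the seed CCAUCGA and differ by U16G and U19G. miR-181a-2-3p differs from miR-181a-1-3p by U5C, inside the seed, and by U16C. The 3p strands of Mir181b-1 and Mir181b-2 share the seed UCACUGA, with A9U behind it. The seeds of miR-181a-2-3p and miR-181d-3p each occurred at 1 locus in the table.

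The 5p strands of the a and b loci are each made by 2 genes. miR-181a-5p is encoded identically at Mir181a-1 and Mir181a-2, and miR-181b-5p at Mir181b-1 and Mir181b-2, while miR-181c-5p and miR-181d-5p each have 1 locus. Thus 4 of 6 members share a mature sequence with another gene, against 97 of 1058 loci with a mature sequence in the table (9.17%). The hairpins of the duplicated genes are printed with their longest common run in capitals, which is the part that cannot tell the copies apart.
Mir181a-1: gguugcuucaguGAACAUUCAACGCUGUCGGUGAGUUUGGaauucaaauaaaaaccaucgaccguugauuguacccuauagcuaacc
Mir181a-2: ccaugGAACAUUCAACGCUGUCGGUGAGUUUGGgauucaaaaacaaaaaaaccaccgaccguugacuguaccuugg
Mir181b-1: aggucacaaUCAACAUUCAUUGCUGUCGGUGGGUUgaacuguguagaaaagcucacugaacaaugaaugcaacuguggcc
Mir181b-2: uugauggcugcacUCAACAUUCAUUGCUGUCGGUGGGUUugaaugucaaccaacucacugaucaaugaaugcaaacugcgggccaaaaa

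The common run is 28 bases long in the a pair and 26 in the b pair, and in all 4 hairpins it contains the whole 5p strand. Each word of 20 bases was searched, on both strands, in GENCODE transcripts of genes lying elsewhere than the hairpin. All 4 words inside the 5p strand of Mir181a-1 were found at Mir181a-2 and all 4 of Mir181a-2 at Mir181a-1. All 5 words of the 5p strand of Mir181b-1 and all 5 of Mir181b-2 were found at the other copy. No word inside a 3p strand of these 4 hairpins was found elsewhere. In Mir181c, 0 of 70 words of the hairpin were found elsewhere, and in Mir181d 0 of 53.

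**Figure D1:**
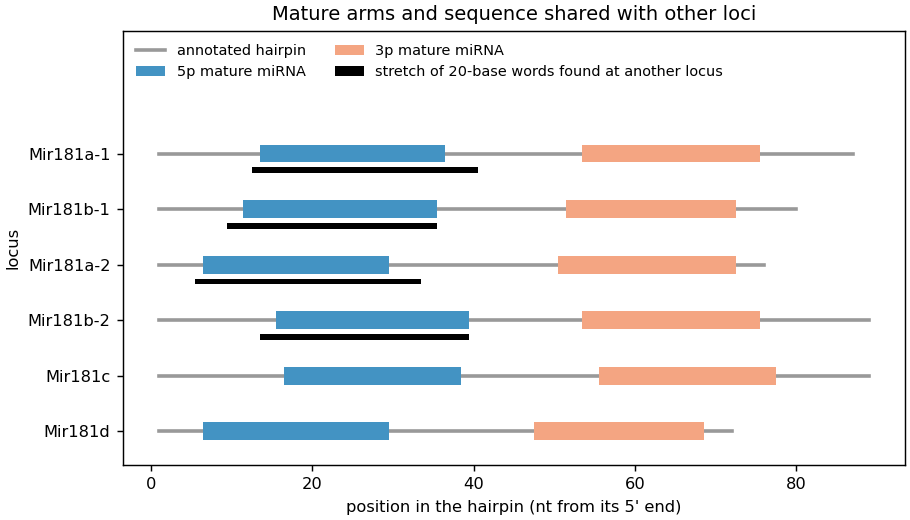
Positions of the mature strands in the 6 hairpins (horizontal axis, nt from the hairpin's 5′ end), with a black line under each stretch of 20-base words also found at another locus. The black stretch covers the 5p strand of Mir181a-1, Mir181a-2, Mir181b-1 and Mir181b-2, and the hairpins of Mir181c and Mir181d have none.

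The gene counts hold reads assigned to 1 locus, and multimapping reads have a summary line of their own. That line held 2863078 reads in replicate 1 and 5481355 in replicate 2, which was 296 and 287 times the reads counted for the whole family. How many of them were miR-181 reads is not recorded in the tables, and neither is the arm a read came from. Levels of the a and b loci are therefore levels of assignable reads, and the levels of Mir181c and Mir181d, where both strands have unique sequence among annotated transcripts, are not on an equal footing with them.

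The 3 clusters lie on different chromosomes, each with both members on 1 strand (mm10, GENCODE M21, coordinates counted from 1). Mir181a-1 (ENSMUSG00000065565.1) lies at chromosome 1, 137966455 to 137966541, and Mir181b-1 (ENSMUSG00000065458.1) at 137966639 to 137966718, both on the plus strand and 97 bases apart. Both sit in an intron of the noncoding Gm4258, and opposite to an intron of the long noncoding Gm26936. Mir181b-1 also lies in an exon of the long noncoding A430106G13Rik, which begins at 137966531 and overlaps the 3′ end of Mir181a-1.

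Mir181a-2 (ENSMUSG00000065423.1) lies at chromosome 2, 38852735 to 38852810, and Mir181b-2 (ENSMUSG00000065578.1) at 38853830 to 38853918, both on the plus strand and 1019 bases apart. They lie opposite to an intron of Nr6a1, a nuclear receptor of germ cells and early embryos. Mir181b-2 also lies opposite to an exon of Gm44144, an unconfirmed transcript. The antisense transcript Nr6a1os, on the strand of the miRNAs, ends 365 bases before Mir181a-2 begins.

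Mir181c (ENSMUSG00000065483.2) lies at chromosome 8, 84178873 to 84178961, and Mir181d (ENSMUSG00000076338.1) at 84178716 to 84178787, both on the minus strand and 85 bases apart. Both sit in an intron of Nanos3, an RNA-binding protein of germ cells, on its strand. None of the 6 members had a read on the opposite strand in either library.

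Replicate 1 held 8041772 reads, of which 2381663 were sense reads at miRNA genes, and replicate 2 held 12239366, of which 4436398 were. Levels are given in reads per 1000000 of these sense reads (CPM, counts scaled to library size), and a count of 0 allows up to 1.26 CPM in replicate 1 and 0.676 CPM in replicate 2, a limit of counting error only. Of marker miRNAs of the labelled tissue, 10 neuron loci summed to 90441 CPM in replicate 1 and 71608 in replicate 2. Most of this sum was Mir132, at 69646 and 43349 CPM. The 3 Mir124a loci of the same list had 13 counted reads in total, with no copy above a mean of 0.87 CPM. They are numbered copies of 1 miRNA, and reads that match several copies are counted at none. This count therefore does not show a low level of that miRNA. The 6 astrocyte loci summed to 39534 and 47030 CPM. Mir122, the liver miRNA, stood at 58.4 and 76.0 CPM. The 6 muscle loci summed to 14.3 and 19.2 CPM, with no read at 4 of them. Nearly all of this sum was Mir206, at 14.3 and 18.9 CPM. The Mir1a and Mir133a loci of the muscle list are numbered gene copies, and reads that match several copies are counted at none. The muscle sum is therefore no measure of how little muscle miRNA the tissue held. The 4 lymphoid and myeloid loci, which mark blood and immune cells that also make miR-181, summed to 1910 and 1870 CPM. Most of this sum was Mir150, at 1701 and 1769 CPM. The part of blood and immune cells in the miR-181 levels was not tested. In whole tissue, fewer cells of a type and less RNA per cell cannot be told apart.

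The family had reads in the cortex at every locus, but very unevenly. Of the counted reads, most came from the Mir181c/Mir181d cluster, in which both members were about equally high, while in each of the other clusters 1 member was high and its neighbour near 10 CPM. The family summed to 9657 reads in replicate 1 and 19087 in replicate 2, that is 4055 and 4302 CPM, with a mean of 4179 ± 175 CPM (SD, n = 2). This was 0.405% of the sense miRNA reads of replicate 1 and 0.430% of those of replicate 2.

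Mir181c, the source of miR-181c, had 4012 reads in replicate 1 and 6039 in replicate 2, or 1685 and 1361 CPM, with a mean of 1523 ± 229 CPM (SD, n = 2). Mir181d, its neighbour in Nanos3, had 3445 and 6367 reads, or 1446 and 1435 CPM, with a mean of 1441 ± 7.99 CPM. The pair was thus alike in level, and which member was higher changed between the libraries. By mean CPM they ranked 77 and 79 among the 2202 loci, above 89.4% and 89.1% of the 728 loci with a read. These are ranks of counted reads, which leave out multimapping reads at every locus, and not ranks of abundance.

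Mir181b-2 had 988 reads in replicate 1 and 5098 in replicate 2, or 415 and 1149 CPM, with a mean of 782 ± 519 CPM (SD, n = 2). Mir181a-2, upstream of it on the same strand, had 22 and 54 reads, or 9.24 and 12.2 CPM, with a mean of 10.7 ± 2.08 CPM. Within this cluster the 2 loci were far apart in both libraries, with no overlap of their values.

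Mir181a-1 was counted at 1170 reads in replicate 1 and at 1470 in replicate 2, or 491 and 331 CPM, with a mean of 411 ± 113 CPM (SD, n = 2). Mir181b-1, 97 bases downstream, had 20 and 59 reads, or 8.40 and 13.3 CPM, with a mean of 10.8 ± 3.47 CPM. Here the a locus had the higher count. The members with the higher counts in the duplicated clusters were thus of different kinds, a from chromosome 1 and b from chromosome 2. A low count at these loci does not show a low output, since reads that match both copies of a 5p strand are counted at neither. The 95% exact Poisson intervals of the low loci were 5.13 to 13.0 CPM for Mir181b-1 and 5.79 to 14.0 CPM for Mir181a-2 in replicate 1, above the limit that a count of 0 allows.

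**Figure D2:**
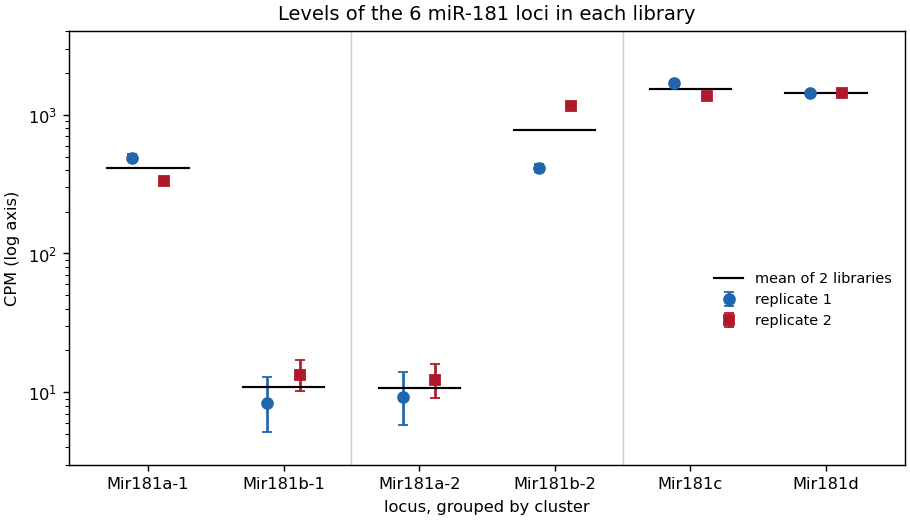
CPM of each locus (vertical log axis) in replicate 1 (circles) and replicate 2 (squares), with 95% exact Poisson intervals for counting error and the mean of the 2 libraries as a line. Mir181c and Mir181d lie between 1361 and 1685 CPM, and Mir181b-1 and Mir181a-2 between 8.40 and 13.3 CPM.

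By mean level of counted reads the order was Mir181c, Mir181d, Mir181b-2, Mir181a-1, Mir181b-1 and Mir181a-2. Reads that match both copies of an a or b strand are left out. The places of Mir181c and Mir181d above those loci are therefore not places in output. Some neighbours in this order did not differ beyond the spread of the libraries. The values of Mir181c and Mir181d overlapped, as did those of Mir181b-2 and Mir181a-1 and those of Mir181b-1 and Mir181a-2. Mir181d lay above Mir181b-2 in both libraries, with a ratio of means of 1.84, and their closest values were 1435 CPM for Mir181d and 1149 CPM for Mir181b-2. The step from Mir181a-1 to Mir181b-1 was the widest between neighbours, with a ratio of means of 37.9. Mir181a-1 ranked above Mir181b-2 in replicate 1 and below it in replicate 2.

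The clusters differed in their share of the family's counted reads. Mir181c/Mir181d held 77.2% of them in replicate 1, with an exact binomial 95% interval of 76.4 to 78.1, and 65.0% in replicate 2, with one of 64.3 to 65.7. Mir181a-2/Mir181b-2 held 10.5% (9.86 to 11.1) and 27.0% (26.4 to 27.6). Mir181a-1/Mir181b-1 held 12.3% (11.7 to 13.0) and 8.01% (7.63 to 8.40). The Mir181c/Mir181d cluster was first in both libraries, and the order of the other clusters changed between them. As sums, the clusters stood at 2964 ± 237 CPM for Mir181c/Mir181d, 793 ± 521 CPM for Mir181a-2/Mir181b-2 and 422 ± 110 CPM for Mir181a-1/Mir181b-1 (SD, n = 2 each). The intervals cover counting error only, and the shares leave out reads that map to both copies of an a or b strand.

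**Figure D3:**
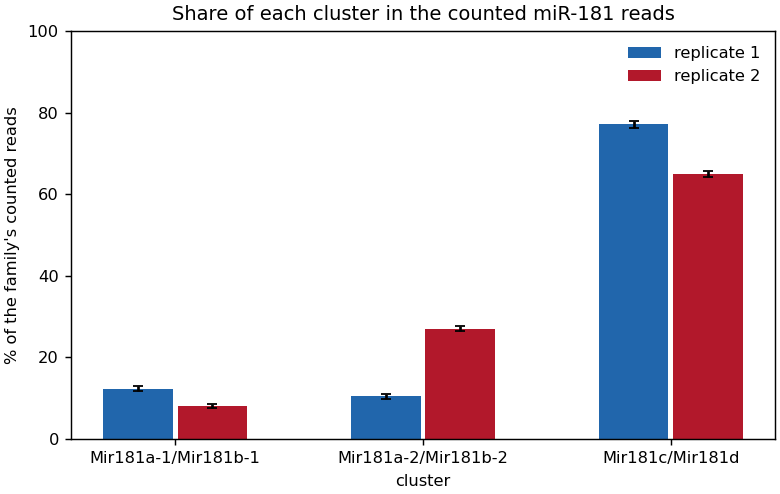
Percent of the family's counted reads (vertical axis) from each cluster, with replicate 1 left of replicate 2 and 95% exact binomial intervals. Mir181c/Mir181d holds 77.2% and 65.0%, and Mir181a-2/Mir181b-2 holds 10.5% and 27.0%.

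Within clusters, neighbours transcribed from 1 strand had unlike counts in the duplicated clusters and like counts in Mir181c/Mir181d. Mir181a-1 had 58.5 times the reads of Mir181b-1 in replicate 1 and 24.9 times in replicate 2, or 98.3% (97.4 to 99.0) and 96.1% (95.1 to 97.0) of the reads of that cluster. Mir181b-2 had 44.9 times the reads of Mir181a-2 in replicate 1 and 94.4 times in replicate 2, or 97.8% (96.7 to 98.6) and 99.0% (98.6 to 99.2). Mir181c held 53.8% (52.7 to 54.9) of its cluster in replicate 1 and 48.7% (47.8 to 49.6) in replicate 2. Both intervals exclude an equal split, in opposite directions.

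These gaps were set beside those of all 110 pairs of adjacent miRNA genes on 1 strand within 10000 bases, where both genes had at least 10 reads in total. The median difference in log2(mean CPM + 1) between such neighbours was 2.93. Mir181a-2 and Mir181b-2 differed by 6.06, and 8 of the 110 pairs, this one included, differed at least as much. Mir181a-1 and Mir181b-1 differed by 5.12, a gap reached by 22 pairs. Mir181c and Mir181d differed by 0.08, and 107 pairs differed at least as much. Reads that match several loci are left out at all these pairs. The gaps, and the folds and shares within clusters above, thus compare assignable reads and not the output of neighbours.

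Between copies of the same miRNA the counts were also unequal. Of the reads of the a loci, Mir181a-1 took 98.2% (97.2 to 98.8) in replicate 1 and 96.5% (95.4 to 97.3) in replicate 2. It had 53.2 and 27.2 times the reads of Mir181a-2. Of the b loci, Mir181b-2 took 98.0% (97.0 to 98.8) and 98.9% (98.5 to 99.1), with 49.4 and 86.4 times the reads of Mir181b-1. The copies make the same 5p strand and different 3p strands, as printed above, and the arm of a counted read is not recorded. A read lying wholly inside the shared 5p strand matches both copies, and multimapping reads stand outside the gene counts. The gaps between copies are therefore no measure of 5p output.

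Other miRNAs with numbered gene copies gave the scale of such gaps. Of 53 stems of this kind, with 115 loci, 26 had at least 10 reads in total over their copies. The difference in log2(mean CPM + 1) between the highest and the lowest copy was 6.05 for Mir181b and 5.14 for Mir181a, against a median of 1.65 over the 26 stems, both of these included. A single stem, Mir219a, exceeded both, at 7.89. Mir92 followed at 4.34, and the smallest gap was 0.05. Multimapping reads are left out at all these stems, so the gaps compare assignable reads and not the output of the copies.

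**Figure D4:**
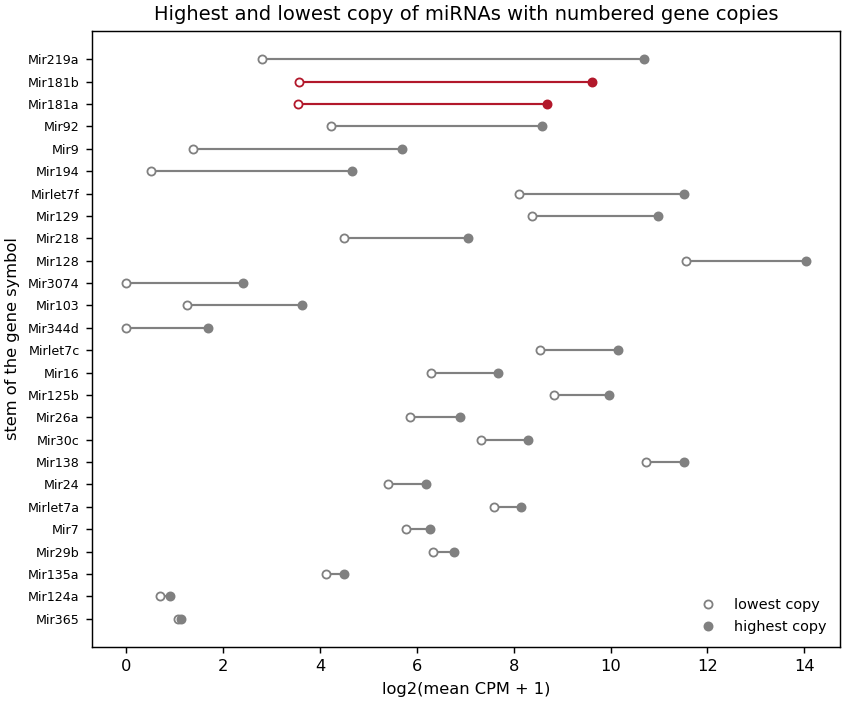
Level of the highest copy (filled) and the lowest copy (open) on the log2(mean CPM + 1) scale for the 26 stems with at least 10 reads, sorted by the gap, with Mir181b and Mir181a in red. Their gaps of 6.05 and 5.14 follow that of Mir219a, 7.89.

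The libraries were compared at every locus. Mir181b-2 was the member that differed most, at 415 CPM in replicate 1 against 1149 CPM in replicate 2, a log2 ratio of replicate 1 over replicate 2 of -1.44 ± 0.05 (counting SE). An exact binomial test given TMM-scaled library sizes, two-sided with Benjamini-Hochberg adjustment over 472 loci with at least 10 reads in total, put it past the threshold of 0.05 (adjusted p = 5.16e-222). Of the 472 loci, 44 had a ratio at least as large in either direction, Mir181b-2 included. Its cluster neighbour Mir181a-2 had a log2 ratio of -0.35 ± 0.36 and did not pass the exact test (adjusted p = 0.455).

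In the opposite direction, Mir181a-1 was higher in replicate 1 by a log2 ratio of 0.60 ± 0.06 (exact binomial adjusted p = 8.91e-25), while Mir181b-1 had -0.61 ± 0.37 (exact binomial adjusted p = 0.164). Mir181c was higher in replicate 1 by 0.34 ± 0.03 (exact binomial adjusted p = 5.90e-29). Mir181d had a log2 ratio of 0.04 ± 0.03 and did not pass (exact binomial adjusted p = 0.302). With RLE size factors in place of TMM, Mir181d passed as well, at a log2 ratio of 0.11.

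The count of members past the test was thus 3 of 6, with 2 higher in replicate 1 and 1 higher in replicate 2. Over all tested loci 52.1% passed, 24.6% higher in replicate 1 and 27.5% higher in replicate 2, so the members' share lay near this background. The median absolute log2 ratio was 0.47 over the members and 0.45 over all 472 loci. The family sum had a log2 ratio of -0.06 ± 0.02 (counting SE), while Mir181b-2 lay on one side of 0 and Mir181a-1 and Mir181c on the other. The binomial test allows for counting noise alone and compares 2 libraries, not conditions. edgeR's exact test with a common coefficient of variation of 0.351 called 0 of 6 members and 2 of 472 loci (0.424%) after adjustment, and 0 and 28 at an unadjusted p under 0.05. That coefficient was estimated from the same differences between these 2 libraries, which by construction leaves few calls, so these counts do not bear on how stable a level is.

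**Figure D5:**
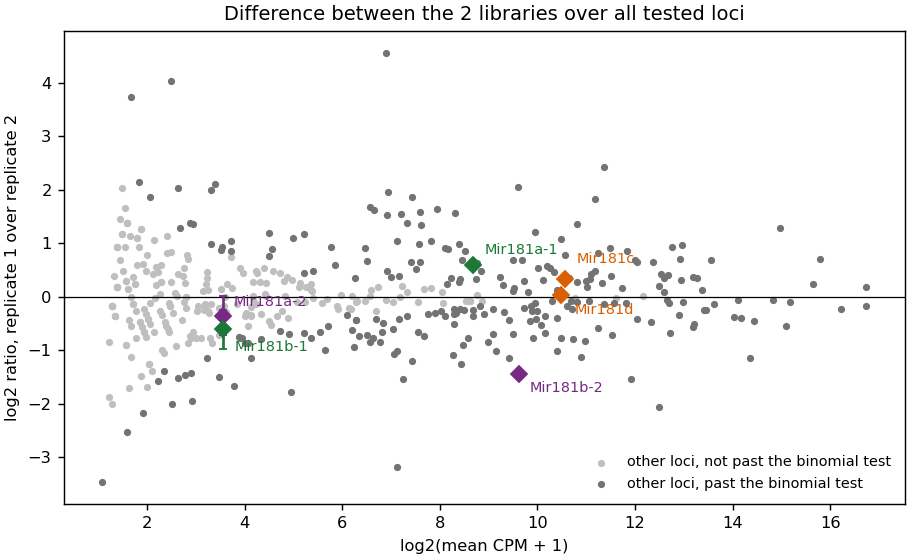
Log2 ratio of replicate 1 over replicate 2 (vertical axis) against log2(mean CPM + 1) for the 472 tested loci, with the 6 members as coloured diamonds with counting SE. Mir181b-2, at -1.44, lies farthest from 0 among the members, and Mir181d, at 0.04, closest.

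Loci outside the family were ranked by how close their levels in the 2 libraries came to those of the highest member of each cluster, as the Euclidean distance of log2(CPM + 1) over the 2 libraries. Closest to Mir181c were Mir1839, at 1782 and 1425 CPM in replicates 1 and 2 (distance 0.10), and Mir760, at 1406 and 1306 CPM (0.27). Closest to Mir181b-2 were Mir1843b, at 418 and 944 CPM (0.28), and Mir667, at 548 and 903 CPM (0.53). Closest to Mir181a-1 were Mir501, at 519 and 344 CPM (0.10), and Mir322, at 471 and 383 CPM (0.22). With 2 libraries this likeness is one of level and of 1 ratio.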

How the data were processed

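Per the labels, both libraries are small RNA below 30 nt from left cerebral cortex. The authors deposited raw counts for each library, as whole reads at each miRNA gene. Notes deposited with the tables name mm10 as build and GENCODE M21 as annotation. The aligner and counter were not given in the sources used here. Counts come for both strands together and for each strand, and those of the gene's strand, recognised from the values, were used. The 4 summary lines, with multimapping reads at 35.6% of all reads in replicate 1 and 44.8% in replicate 2, were kept out of library totals and tests.

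CPM used the sense miRNA reads of a library as total, and log values a pseudocount of 1 CPM. TMM and RLE factors came from edgeR 4.0.16 (R 4.3.3) over loci with at least 10 reads in total. The TMM factors were 0.990 and 1.01. The binomial test, with Python 3.11.15 and scipy 1.17.1, was tried on simulated counts with Poisson noise alone. That is the noise the test assumes, so the trial checks the code and says nothing on false calls between these libraries. A single group leaves no quasi-likelihood contrast. Named are the 6 members, other miRNAs with their 5p seed, the 2 loci closest in level to the highest member of each cluster, overlapping genes and listed markers. Mir219a and Mir92, and among the listed markers Mir132, Mir124a, Mir150, Mir206, Mir1a and Mir133a, were named after their values were seen. The members, lists and tests were chosen with earlier results of these data known. Mature and hairpin sequences are from RefSeq (GRCm38.p6). Word searches used annotated transcripts only, since no genome sequence was used here.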

Additional observations from a re-analysis of the deposited data

How the results depend on the processing

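With 2 libraries, leaving one out gives the value of the other, which always lies within 1 SD of the mean and so says nothing about stability. It moved Mir181b-2 from a mean of 782 CPM to 415 CPM without replicate 2 or 1149 CPM without replicate 1, and its cluster from 793 CPM to 424 CPM without replicate 2 or 1161 CPM without replicate 1. TMM scaling left all levels within the SD between the libraries, and pseudocounts of 0.5 and 5 CPM kept the closest loci named. With all reads of a library as the total, mean levels were 1380 CPM for the family, 970 CPM for Mir181c/Mir181d and 136 CPM for Mir181a-1/Mir181b-1, since the total is larger. With unstranded counts the totals were lower, at 2184273 reads in replicate 1 and 4051808 in replicate 2, and no member's own count changed. The family then stood at 4566 CPM and Mir181c/Mir181d at 3238 CPM. Past the binomial test were 3 members under library totals and both other read minimums, and 4 with RLE factors. The exact test of edgeR called 0 members and 2 loci, with a dispersion estimated from the very differences it tests, so it is no check of the other counts. The share of hairpin words found elsewhere moved by at most 10 percentage points with words of 18 or 22 bases. Depth limits Mir181a-2 and Mir181b-1 most, with 20 to 59 reads per library. No paired analysis was possible because there is 1 group.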
